A study of Mus musculus with 3 samples.

Results

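The p53 pathway was read here through 10 genes: Trp53, which encodes the p53 protein, and 9 genes that p53 switches on, namely Mdm2, Ccng1, Sesn1, Sesn2, Bax, Bbc3, Pmaip1, Phlda3 and Trp53inp1. The genes were listed by name, and their array probes were found by matching each probe's transcript accession to RefSeq symbols, which gave 11 probes among the 27228 with a gene name and 10 genes among 20573. Mouse cells of 3 groups were measured on 1 one-colour Cy3 expression array each. MF were primary fibroblasts grown out of spleens that SiO2 had remodelled, given the control lentivirus LV-NC. iHep, labelled hepatocyte-like cells, came from the same kind of fibroblasts after the lentivirus LV-3TF, whose 3 factors the labels do not name. Both were collected 14 days after transduction. PH were hepatocytes taken fresh from the animal and never carried through that culture, and no transduction is given for them. In any comparison with PH the cell type, the organ, the SiO2 remodelling of the spleen, the lentivirus and the culture cannot be told apart. All groups are labelled female, and each RNA was a pool of 5 samples per the design text. Strain and age are not given in the sources used here.

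p53 is a transcription factor that is held at low levels by MDM2, a ubiquitin ligase that p53 itself induces, and that accumulates when DNA is damaged, when nutrients or oncogenes stress the cell, or when the ARF product of Cdkn2a blocks MDM2. It binds DNA as a tetramer at a pair of short half-sites and drives genes for cell cycle arrest, repair, antioxidant defence and apoptosis. In the liver it has been studied as a brake on regenerating hepatocytes, and in cultured fibroblasts as a barrier to reprogramming. The p53 protein is controlled mostly by its stability, so an array of RNA reads the outputs of the pathway rather than p53 activity itself.

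The DNA that p53 reads can be shown for part of the set. RefSeq start sites of GRCm38.p6 gave a window for 8 of the 10 genes, and the 250 bases before each start were searched for the p53 consensus: a pair of half-sites with their C and G core bases intact, 0 to 3 bases apart, with at most 3 mismatches over the pair. The consensus is its own reverse complement, so a single pass covers both strands. A match was found for 5 genes, Trp53, Ccng1, Sesn1, Bax and Bbc3, and none for Mdm2, Sesn2 or Phlda3. Among all 27025 genes with a window 5.38% held one, and of 28 other known p53 targets with a window 3 did (Cdkn1a, Aen and Tigar). The matches of the members, 1 per gene, are printed with that of Cdkn1a, the textbook p53 target. They show how the same pattern recurs in genes whose levels went different ways on these arrays. Each sequence runs 5′ to 3′ on the gene's strand and the capitals mark the matching half-sites.
Ccng1, chr11:40755447-40755496, minus strand, 1 mismatch: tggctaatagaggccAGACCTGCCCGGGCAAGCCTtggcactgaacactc
Cdkn1a, chr17:29090913-29090962, plus strand, 1 mismatch: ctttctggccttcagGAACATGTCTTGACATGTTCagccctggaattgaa
Bax, chr7:45467064-45467114, minus strand, 2 mismatches: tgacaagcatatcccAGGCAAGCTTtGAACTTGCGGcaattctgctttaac
Sesn1, chr10:41887238-41887290, plus strand, 2 mismatches: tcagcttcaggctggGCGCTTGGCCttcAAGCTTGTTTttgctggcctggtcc
Trp53, chr11:69580269-69580318, plus strand, 3 mismatches: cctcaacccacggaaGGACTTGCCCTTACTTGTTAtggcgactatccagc
Bbc3, chr7:16309486-16309505, plus strand, 3 mismatches, the site alone: CTGCAAGCCCCGACTTGTCC

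The matches begin 195 bases before the gene's start for Ccng1, 51 for Cdkn1a, 201 for Bax, 186 for Sesn1, 75 for Trp53 and 97 for Bbc3. The Sesn1 match belongs to the second of its 2 listed starts, and the one printed for Bbc3 to the first of 3. Cdkn1a also has 2 listed starts, and a match was found before only 1 of them. Its distance of 51 bases is counted from that start and not from the other. With at most 1 mismatch, as in Ccng1 and Cdkn1a, only 0.170% of the 32851 windows of all genes held a match, against 1.09% at up to 2 mismatches and 4.71% at up to 3. A match is a string of letters and not a measured binding site, and p53 sites outside this window, such as those in introns, were not searched.

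Levels below are log2 of the background-subtracted spot intensity minus the 75th percentile of the same array, so level 0 is that percentile and 1 unit is a doubling. The 75th percentile itself was 544 intensity units on MF, 3752 on iHep and 2081 on PH, and the MF array was scanned apart from the other arrays, so scan and group cannot be told apart in comparisons with MF. With 1 array per group there is no replicate and no test. "Higher" and "lower" describe these arrays, and the pooled RNA gives no spread between animals. Non-control probes printed repeatedly on the same array gave a technical SD of 0.14 to 0.15 for a log2 difference, and the scanner software's own error for a member's log2 difference was 0.20 to 0.21. Different probes of a gene disagreed by more, with a pooled SD of 0.84 in the comparison of iHep with MF and of 1.11 and 1.09 in those of PH with MF and of iHep with PH. Genes are counted at 2-fold, a log2 difference of 1, which lies beyond spot noise but near the disagreement between probes. All 11 member probes were well above background on all 3 arrays, and no spot was saturated, so every member difference is measured on both sides. Each member probe has 1 spot per array, and 9 members rest on a single probe.

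Relative to the fibroblasts, hepatocytes held less RNA of most of these genes, and the iHep cells lay between or near MF for most. In PH, Phlda3, Ccng1 and Pmaip1 were 70.5-fold, 32.2-fold and 11.0-fold lower than in MF, while Sesn2 was 16.0-fold higher. In iHep, Ccng1 and Sesn1 were 6.61-fold and 5.10-fold lower than in MF and Sesn2 was 4.62-fold higher, while Trp53, Mdm2, Bax, Bbc3 and Pmaip1 stayed within 2-fold. In bulk RNA, fewer cells of a type and less RNA per cell cannot be told apart.

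**Figure D1:**
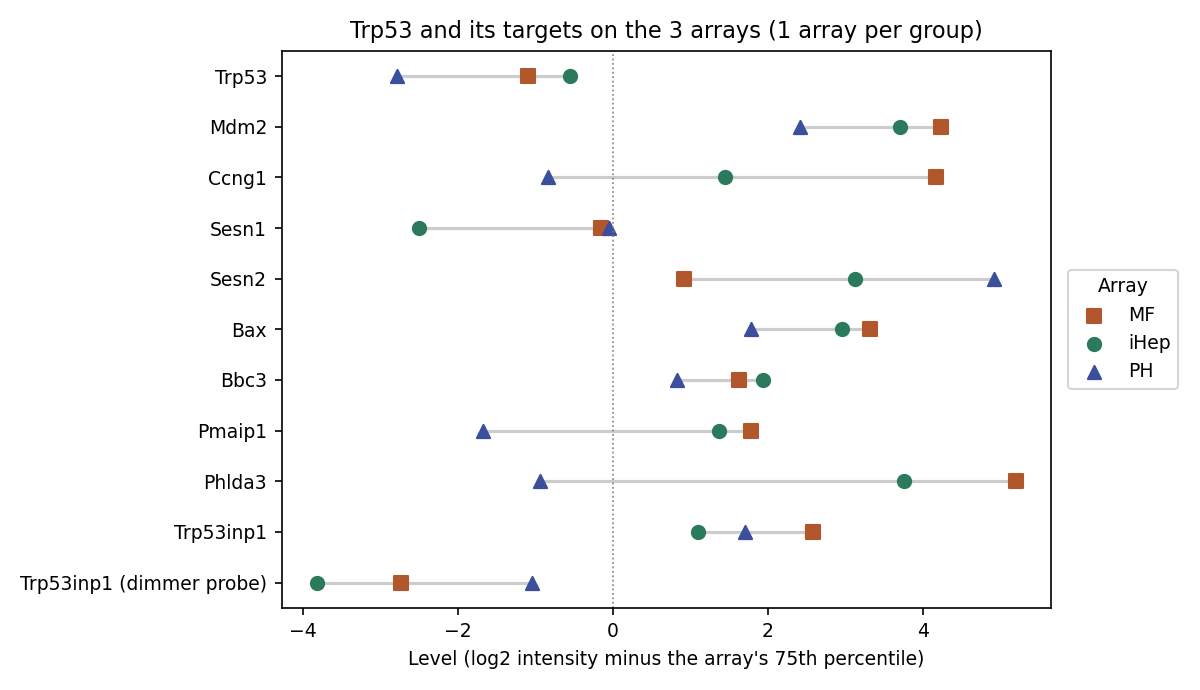
Levels of the 10 genes on each array (x axis, log2 intensity minus the array's 75th percentile; 1 point per array, square MF, circle iHep, triangle PH; the dotted line is level 0). Phlda3 has the widest spread, from 5.20 in MF to -0.94 in PH, Sesn2 runs the opposite way, and the 2 probes of Trp53inp1 put PH at different places in the order.

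Trp53 itself read -1.10 in MF, -0.55 in iHep and -2.79 in PH. The hepatocyte array was the low one, while both cultures lay close together. The log2 difference between iHep and MF was 0.55, or 1.46-fold. PH lay at -1.69 relative to MF, 3.23-fold lower, and iHep at 2.24 relative to PH, 4.73-fold higher. Across all genes compared, 8.22% stood higher than Trp53 in iHep over PH.

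Mdm2, the ligase that tags p53 for destruction and is itself a p53 target, read 4.24 in MF, 3.71 in iHep and 2.41 in PH. All 3 readings lay far above the arrays' 75th percentile. Mdm2 was 1.44-fold lower in iHep than in MF, within the 2-fold limit, and 3.54-fold lower in PH than in MF. It was 2.45-fold higher in iHep than in PH, so Trp53 and Mdm2, the partners of the feedback loop, were both lowest in PH.

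Ccng1, cyclin G1, which recruits a phosphatase to MDM2, read 4.17 in MF, 1.45 in iHep and -0.84 in PH. The 3 arrays lay far apart, with iHep between the other two. The log2 difference was -2.72 for iHep over MF and -5.01 for PH over MF, with 1.5% of all genes lower still in the latter. iHep over PH stood at 2.28, a 4.87-fold difference. Ccng1 is the member with the closest match to the p53 consensus before its start, at 1 mismatch.

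The sestrins are stress proteins that restrain mTORC1 and help regenerate antioxidant enzymes, and the 2 among the members stood in different orders. Sesn1, a long-known p53 target, read -0.16 in MF, -2.51 in iHep and -0.05 in PH. MF and PH differed by 0.11 on the log2 scale, less than the spot noise, and iHep alone was low, 5.10-fold below MF and 5.49-fold below PH. Sesn2, which both p53 and the stress factor ATF4 can induce, read 0.92 in MF, 3.12 in iHep and 4.92 in PH. Its order, highest in PH and lowest in MF, was the reverse of that of 5 other members, with log2 differences from MF of 2.21 in iHep and 4.0 in PH, and -1.79 for iHep over PH. In iHep over MF 6.15% of all genes stood higher than Sesn2, and in PH over MF 6.84% did.

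The 3 pro-apoptotic BCL2 family members shared a low hepatocyte reading, but differed in its size. Bax, the pore-forming effector at the mitochondrion, read 3.32 in MF, 2.96 in iHep and 1.78 in PH. It was 1.28-fold lower in iHep than in MF and 2.89-fold lower in PH than in MF, and 2.26-fold higher in iHep than in PH. Bbc3, which encodes the BH3-only protein PUMA, read 1.63 in MF, 1.93 in iHep and 0.83 in PH. MF and iHep lay 1.24-fold apart and PH 1.74-fold below MF, both within the limit, and only iHep over PH passed 2-fold, at 2.15-fold. Pmaip1, which encodes the BH3-only protein NOXA, read 1.79 in MF, 1.37 in iHep and -1.67 in PH. The cultures lay 1.33-fold apart, and PH was 11.0-fold below MF and 8.22-fold below iHep.

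Phlda3, a pleckstrin homology protein that competes with AKT for membrane lipid and so restrains AKT signalling, read 5.20 in MF, 3.76 in iHep and -0.94 in PH. This was the greatest difference among the members: PH over MF stood at -6.14, and 0.63% of all genes were lower still. iHep was 25.9-fold above PH, with 1.41% of genes higher, and 2.72-fold below MF. That last difference of -1.45 was -0.88 after quantile normalization, which is inside 2-fold.

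Trp53inp1, a stress protein of the nucleus and of autophagosomes that promotes p53 phosphorylation, is the only member with 2 probes. The brighter probe read 2.58 in MF, 1.10 in iHep and 1.71 in PH, and the dimmer one -2.73, -3.82 and -1.05. Both put iHep lower than MF, by 2.80-fold and 2.13-fold, and both put iHep lowest of the 3. They disagreed on PH over MF, where the brighter gave -0.88 and the dimmer 1.68 (3.21-fold higher in PH), so no direction is given for that comparison. For iHep over PH they gave -0.61 and -2.77.

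**Figure D2:**
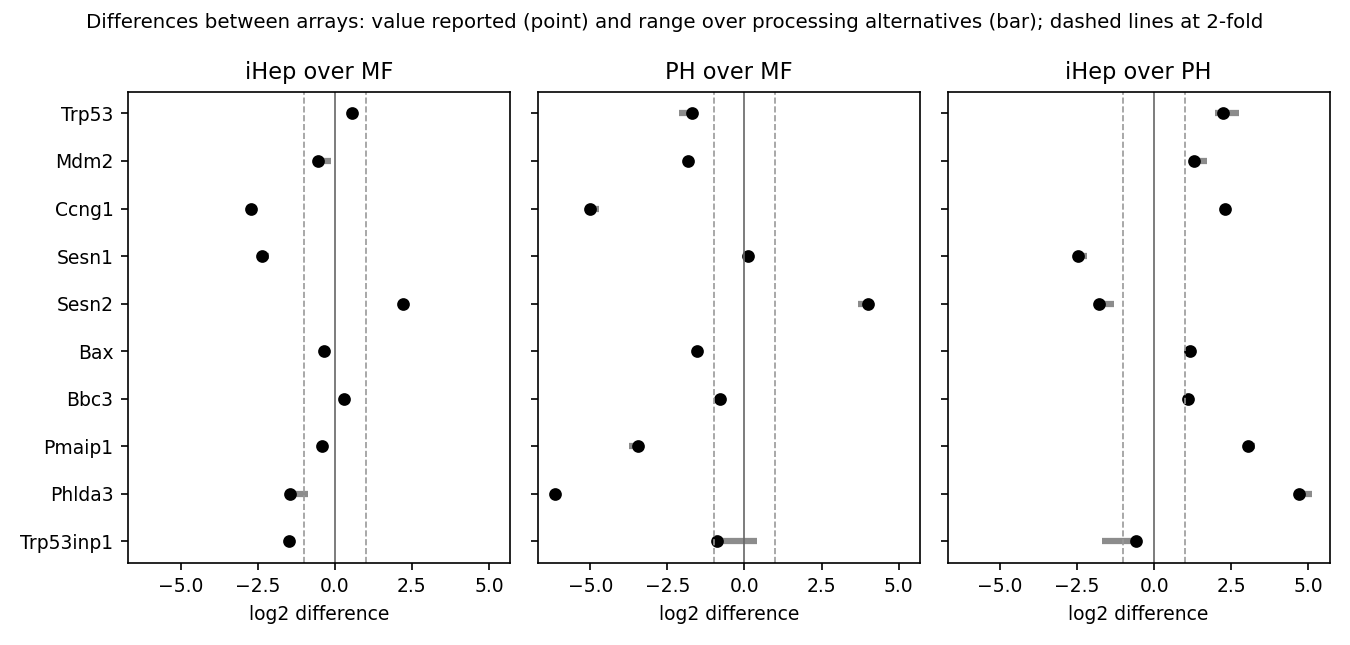
Log2 differences of the 10 genes in the 3 comparisons (points) with the range over up to 7 other ways of processing the values (grey bars; dashed lines mark 2-fold). Bars are short beside the larger differences, but several of these ways return the reported value for a member with 1 probe above background. Trp53inp1 in PH over MF is the one bar that crosses 0, from -0.94 to 0.40.

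Counted together, in iHep over MF 4 of the 10 members were at least 2-fold lower (Ccng1, Sesn1, Phlda3 and Trp53inp1), where 24.9% of the 16238 genes compared were, and 1 was at least 2-fold higher (Sesn2), where 21.0% were. The remaining 5 lay within 2-fold, and the members' median was -0.47 against 0.02 over all genes. In PH over MF 6 of 10 were lower (Trp53, Mdm2, Ccng1, Bax, Pmaip1 and Phlda3), against 25.9% of 17447 genes, and 1 was higher (Sesn2), against 31.4%, with a median of -1.61 against 0.08. In iHep over PH 7 of 10 were higher (Trp53, Mdm2, Ccng1, Bax, Bbc3, Pmaip1 and Phlda3), against 23.4% of 17863 genes, and 2 were lower (Sesn1 and Sesn2), against 36.3%, with a median of 1.23 against -0.31. The comparisons share arrays, so a low PH reading enters both comparisons that use PH. The all-gene median moved by -0.35 in PH over MF and 0.55 in iHep over PH after quantile normalization, and by -0.45 in both comparisons with MF after normexp background correction. Higher genes made up 45.8%, 54.9% and 39.2% of all those past 2-fold in the 3 comparisons in that order, against 49.9%, 43.2% and 54.9% after quantile normalization, 27.6%, 38.9% and 36.9% after normexp and 49.5%, 42.0% and 55.7% in the authors' values.

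The order of the 3 arrays sums this up for each gene. Of the 10 members 5 ran MF, then iHep, then PH from high to low (Mdm2, Ccng1, Bax, Pmaip1 and Phlda3), an order seen in 19.1% of the 13925 genes above background on all 3 arrays. Trp53 and Bbc3 ran iHep, MF, PH, as did 21.1% of genes. Sesn2 ran PH, iHep, MF (17.9% of genes), Sesn1 PH, MF, iHep (17.2%) and Trp53inp1, by its brighter probe, MF, PH, iHep (14.3%). Neighbours in the order do not differ beyond 2-fold for Trp53, Mdm2, Bax, Bbc3 and Pmaip1 between MF and iHep, for Bbc3 between MF and PH, for Sesn1 between PH and MF, and for Trp53inp1 between PH and either culture. Of 33 other p53 targets above background on all 3 arrays, 11 had the order MF, iHep, PH.

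The targets outside the 10 came from a list of 36 textbook p53 targets. Of the 35 compared in iHep over MF 14 were lower and 8 higher by 2-fold (median -0.20). PH against MF had 18 of 35 lower and 7 higher (median -1.41), and iHep against PH had 17 of 34 higher and 9 lower (median 1.03). Over all genes compared, 24.9% were lower and 21.0% higher in iHep over MF, and 25.9% and 31.4% in PH over MF. In iHep over PH 36.3% were lower and 23.4% higher. These shares apply to each list count below as well. The 8 of 35 higher in iHep over MF stood near the all-gene share. The medians of these targets lay on the same side of 0 as those of the members in each comparison. The list was drawn up with results of these arrays known and is no independent support.

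Cdkn1a, which encodes the cell cycle inhibitor p21, read 2.65 in MF, 0.17 in iHep and -0.20 in PH. It was 5.60-fold lower in iHep and 7.20-fold lower in PH than in MF, and its second, dimmer probe also ran downward, at -0.69, -3.80 and -5.77. Among the arrest and repair targets the lists held 14 genes compared in iHep over MF, 5 of them lower and 2 higher. Btg2, an antiproliferative transcription cofactor, was 5.09-fold lower in iHep than in MF, and Polk, a translesion polymerase, 3.03-fold lower. Rprm, a G2 arrest protein, read -2.10 in MF and was not well above background elsewhere, at least 37.4-fold lower in iHep. The ones higher were Rrm2b, the p53-induced ribonucleotide reductase subunit, at 2.97-fold (just under 2-fold in the authors' values, at 0.98), and Gadd45a, a stress and repair factor, at 2.30-fold.

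Between PH and MF, 7 of 14 arrest and repair targets were lower and 2 higher. Gtse1, which shuttles p53 out of the nucleus in G2, was 13.9-fold lower in PH, Polk 10.5-fold lower and Rprm at least 27.7-fold lower. The higher genes were Plk3, a stress kinase, at 5.92-fold, and Sfn, the 14-3-3 sigma checkpoint protein, at 6.70-fold. Over the other ways of processing these log2 differences came as near to 0 as -2.62 for Polk, -3.08 for Rprm and 1.61 for Sfn, each still past 2-fold. Of 13 compared in iHep over PH 6 were higher, led by Gtse1 at 22.8-fold, Gadd45a at 14.3-fold and Rrm2b at 5.52-fold, and 3 were lower, Sfn at 13.4-fold, Plk3 at 3.74-fold and Btg2 at -3.33 on the log2 scale.

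Death targets differed in more of their members. Of 12, 6 were lower and 2 higher in iHep than in MF (median -0.95). Fas, the death receptor, was 4.20-fold lower, Eda2r, a TNF receptor family member, 3.33-fold lower and Zmat3, an RNA-binding p53 target, 2.98-fold lower, while Perp, a desmosomal protein of epithelia, was 4.94-fold higher and Bid, the link from death receptors to mitochondria, 3.05-fold higher. Set against MF, PH had 9 of the 12 lower and 2 higher (median -2.09). Tnfrsf10b, the TRAIL receptor, was 14.9-fold lower, Zmat3 14.5-fold lower and Eda2r at least 10.2-fold lower (-2.23 at the least on the log2 scale over the other ways of processing), against Perp at 12.8-fold and the endoplasmic reticulum protein gene Ei24 at 2.98-fold higher. Against PH, iHep had 8 higher and 3 lower, Bid at 12.5-fold and Tnfrsf10b at 9.98-fold on the high side and Fas at 4.33-fold on the low side.

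Metabolic and secreted targets were higher about as often as lower. Their counts in PH over MF lay near the all-gene shares of 31.4% higher and 25.9% lower. In iHep over MF 3 of 9 were lower and 4 higher, with Igfbp3, a binding protein of insulin-like growth factors, 8.01-fold lower, Ak1, an adenylate kinase, 3.87-fold lower and Ephx1, the microsomal epoxide hydrolase, 2.43-fold lower (inside 2-fold, to as little as -0.93 on the log2 scale, after quantile normalization, in the authors' values and by the mean of its probes). Epha2, an ephrin receptor, was 3.80-fold higher, Tigar, which lowers glycolytic flux, 3.36-fold higher and Gls2, the liver-type glutaminase, 3.06-fold higher (0.59 on the log2 scale after normexp). PH over MF gave 3 higher and 2 lower, with Gls2 260-fold higher (6.83 at the least on the log2 scale over the other ways of processing), Gpx1, a glutathione peroxidase, 3.38-fold higher and the stress cytokine gene Gdf15 2.79-fold higher, against Ak1 68.4-fold and Igfbp3 5.44-fold lower. iHep over PH gave 3 higher and 3 lower, led by Ak1 at 17.7-fold on the high side and Gls2 at 84.7-fold on the low side. The medians of this list lay near 0, at -0.04 in iHep over MF, 0.27 in PH over MF and -0.46 in iHep over PH. Across the other ways of processing they reached 0.26 and 0.03 in the first and last of these, on the other side of 0.

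**Figure D3:**
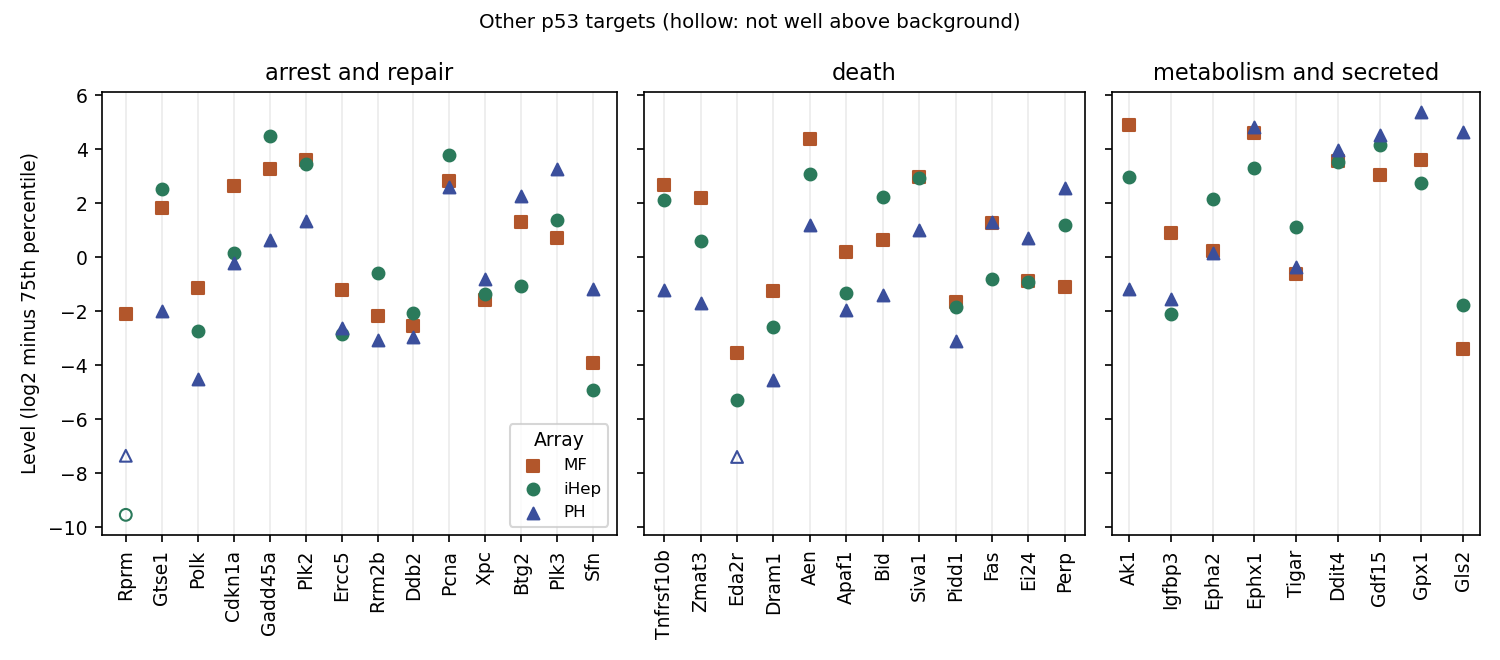
Levels of the other p53 targets on the 3 arrays (y axis, log2 intensity minus the array's 75th percentile; square MF, circle iHep, triangle PH), with genes ordered within each panel by PH minus MF. Hollow symbols are readings not well above background; in the death panel 9 of 12 triangles lie at least 2-fold below their squares.

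Of 19 p53 regulators compared in iHep over MF 3 were higher and 2 lower (median 0.30), against 21.0% and 24.9% of all genes. Ppm1d, the phosphatase that dampens the damage response, was 2.76-fold higher, the deacetylase Sirt1 2.60-fold higher and the damage kinase Atr 2.15-fold higher, while the lower genes were the acetyltransferase Crebbp at 3.10-fold and Cdkn2a at 16.7-fold. Mdm4, the partner of MDM2, read -2.05 in MF, -1.48 in iHep and -2.68 in PH, within 2-fold except for iHep over PH at 2.30-fold (0.91 on the log2 scale by the mean of its probes). Cdkn2a, whose ARF product blocks MDM2 and whose INK4A product blocks CDK4, read 4.77 in MF, 0.71 in iHep and -4.95 in PH. It was 847-fold lower in PH than in MF and 50.9-fold higher in iHep than in PH (-8.55 and 4.68 on the log2 scale at the least over the other ways of processing), and stood in the same order as Mdm2, Ccng1 and Phlda3. Hepatocytes had 7 of 19 regulators lower and 1 higher, with the checkpoint kinase Chek2, next after Cdkn2a, 8.13-fold lower (-2.36 at the least on the log2 scale), Ppp1r13l, an inhibitor of p53, 4.65-fold lower and Sirt1 2.69-fold higher. Between iHep and PH, 11 were higher in iHep and 1, Crebbp, lower. The probe of Chek1, chosen after its values were seen, was marked as faulty on PH and gave 12-fold for iHep over MF.

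Relatives of the members gave mixed readings. In the p53 family, Trp63 read 1.70 in MF, 0.05 in iHep and 1.15 in PH by its brighter probe, while its other probe was not well above background on any array. Trp73 read -2.76, -3.04 and 0.64 by the brightest of 3 probes, 10.6-fold higher in PH than in MF (0.06 on the log2 scale in the authors' values), but 1 other probe was dim on all arrays and 1 was above background in PH alone. Among paralogs, Sesn3 was 2.89-fold lower in iHep than in MF, beside Sesn1 lower and Sesn2 higher, and Ccng2 lay within 2-fold of MF in both iHep and PH where Ccng1 did not. Bak1, the other pore-forming effector beside Bax, was 4.14-fold lower in PH than in MF, while Bok was 2.78-fold higher. Trp53inp2 was 2.86-fold lower in iHep than in MF and 4.82-fold lower than in PH. Phlda2, an imprinted growth regulator of the placenta, was 6.86-fold higher in PH than in MF, opposite to Phlda3 at 70.5-fold lower, though 0.37 on the log2 scale after normexp. Of the 10 relatives compared, none was higher and 4 were lower in iHep over MF, 4 were higher and 1 lower in PH over MF, and 3 were higher and 6 lower in iHep over PH.

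Most of the remaining BCL2 family genes lay within 2-fold between the cultures: of 10 compared in iHep over MF 1 was higher (Bid) and none lower (median -0.15). Bid was already counted among the death targets, and Bak1 and Bok among the relatives. PH against MF had 4 of 12 higher and 4 lower, near the all-gene shares of 31.4% and 25.9%. There Hrk and Bik, BH3-only genes, were at least 9.77-fold and 4.50-fold higher (on the log2 scale Hrk 0.49 after normexp, Bik 1.13 at the least), and Bid and Bad were 4.09-fold and 3.16-fold lower, Bad at -0.70 on the log2 scale when its probes were averaged. iHep against PH had 3 higher and 4 lower.

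Programmes that share readouts with p53 were counted beside it. ATF4, the transcription factor of the integrated stress response, also drives Sesn2, and Chac1 and Ddit3 are among its standard targets. The ATF4 list held 11 genes, Atf4 itself among them. Atf4 was read by a dimmer probe (-0.48 in MF), since its brighter one (5.05 in MF) was marked as faulty on PH. For iHep over MF the brighter probe gave -0.26 on the log2 scale, and the one used 0.84. Of the 11 genes iHep had 6 at least 2-fold above MF and 1 below (median 1.20). Furthest up was the cystine transporter Slc7a11 at 12.4-fold (3.63 on the log2 scale, 1.75 at the least over the other ways of processing). Next came the glutathione-degrading enzyme Chac1 at 4.74-fold and the lipoprotein receptor Vldlr at 3.48-fold (1.80, or 1.03 at the least). The lower gene was Atf5 at 2.41-fold, or -0.34 on the log2 scale in the authors' values. PH against MF had none higher and 7 lower (median -1.87), Ddit3 being 19.0-fold lower and the serine synthesis gene Psat1 17.8-fold lower (-3.37 at the least on the log2 scale), whereas Sesn2 was 16.0-fold higher there. iHep against PH had 10 of 11 higher and none lower (median 3.48), and Sesn2 was 3.46-fold lower. Sesn2 went the same way as the list's median in iHep over MF and the other way in both comparisons with PH. Whether ATF4 drove Sesn2 in these cells was not tested.

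Cell cycle genes that p53 lowers through p21 showed one of the clearest list patterns. All 11 exceeded 2-fold in iHep over MF (median 2.07), and between 9 and 11 did under each other processing of the values. Not every way of processing measured all 11. Of those measured only Cdc25c fell inside 2-fold, at 0.03 on the log2 scale after normexp. Mybl2, a cell cycle transcription factor, was 11.2-fold higher, the spindle checkpoint kinase gene Bub1b 6.72-fold and the mitotic kinase gene Plk1 5.45-fold, beside Cdkn1a at 5.60-fold lower. PH had 10 of 11 lower than MF and 1 higher (median -1.90), although Cdkn1a was 7.20-fold lower there too. The higher gene was Mybl2 at 3.20-fold by its brighter probe, while its other probe gave -2.34, and Birc5, the survivin gene, was 8.42-fold lower by its brightest probe while another gave 3.06 on the log2 scale. In iHep over PH all 11 were higher (median 4.25). Low Cdkn1a therefore stood beside high cell cycle genes in iHep and beside low ones in PH.

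**Figure D4:**
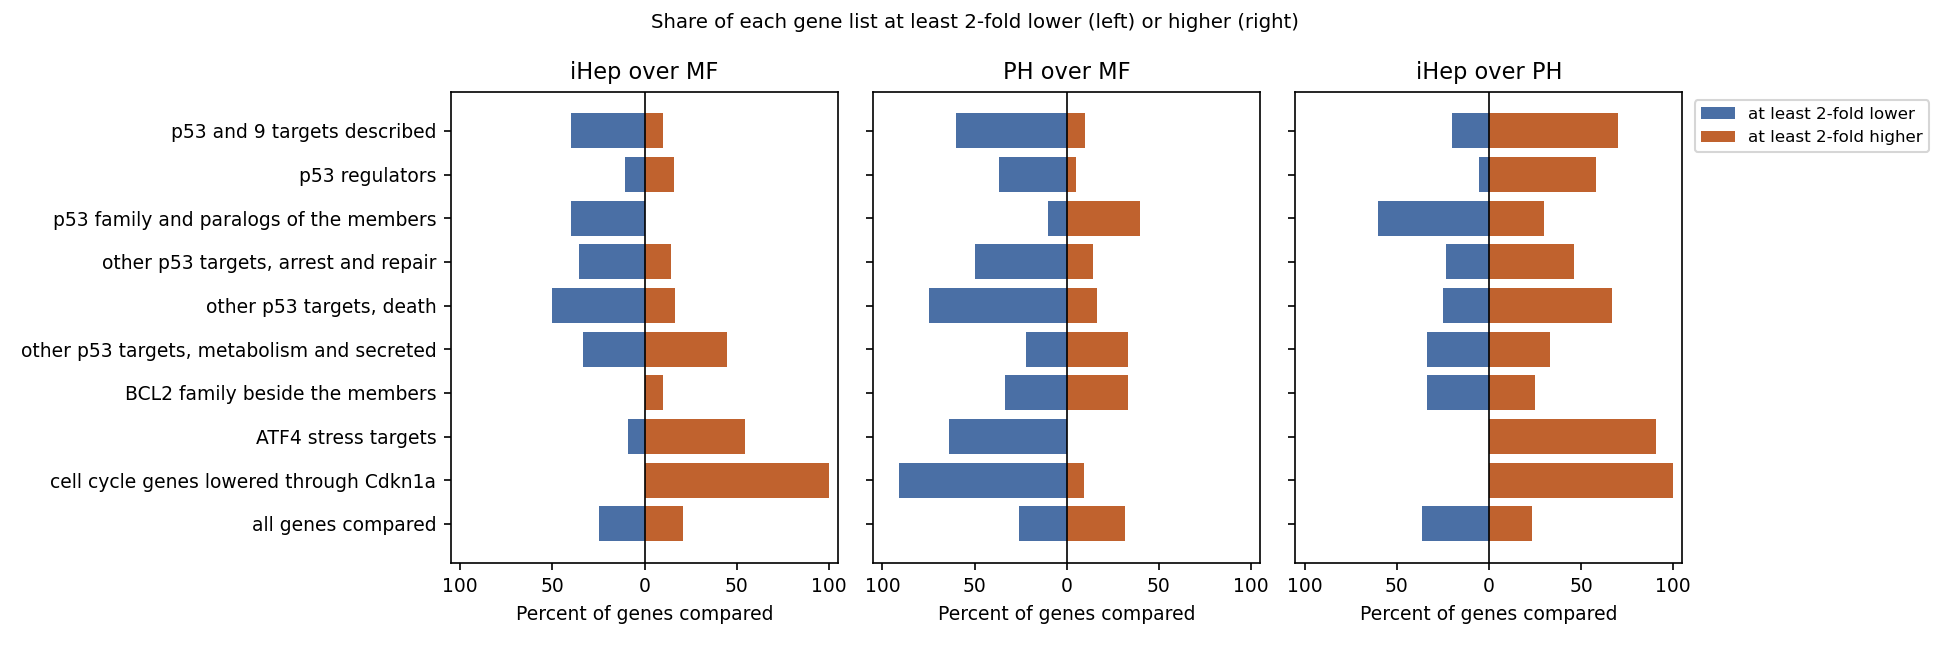
Percent of each gene list at least 2-fold lower (bars to the left) or higher (bars to the right) in the 3 comparisons, with all genes compared as the bottom bar. Some lists share genes. The cell cycle list reaches 100 percent higher in iHep over MF and iHep over PH, and the members have 60 percent lower in PH over MF against 25.9% of all genes.

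Marker genes were read for the labelled cells and for other cell types that the pools may have held. The arrays read RNA, and the make-up of the pools was not measured. Hepatocyte markers summed to 0.214 times the array's 75th percentile in MF, 2.43 in iHep and 469 in PH, with 5, 7 and 8 of 8 well above background. Most of the iHep sum came from Hnf4a alone. Of 7 compared in iHep over MF, 2 were higher (Hnf4a, and Apob as a bound) and 5 lay within 2-fold. The labels do not say whether Hnf4a was among the lentiviral factors. Alb read -4.75 in iHep against 6.67 in PH, and Hnf4a, a regulator of liver genes, 1.04 against 6.0. Against the label hepatocyte-like, Alb in iHep lay near its MF reading of -5.20, while Hnf4a (-5.62 in MF) and the epithelial keratin gene Krt18 (3.66 in iHep, -0.66 in MF) lay above theirs. All 9 fibroblast markers were above background on every array, and they summed to 612 in MF, 68.0 in iHep and 57.5 in PH. Col1a1 read 7.09 in MF, 4.62 in iHep and 3.99 in PH, Pdgfrb 5.02, 3.68 and -0.32, and Vim 6.28, 4.48 and 3.74. Of the 9 markers 5 ran MF, iHep, PH like these, the order of Ccng1, Phlda3 and Cdkn1a, while the remaining 4 were lowest in iHep, among them, chosen after their values were seen, Thy1 (6.84, -6.15 and 0.72 in MF, iHep and PH) and Dcn (2.71, -5.45 and 3.76).

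Macrophage markers summed to 80.1 in MF, 0.902 in iHep and 92.8 in PH, with 7, 4 and 7 of 7 above background, and C1qc read 4.81 and 4.76 in MF and PH and was not well above background in iHep. Of the 7, 6 were lower in iHep than in MF, while Cd14 stayed within 2-fold, at -0.96, -0.65 and -0.32 in MF, iHep and PH. For Csf1r the probe used gave -5.58 in iHep over MF, but another gave 0.40. Ptprc, the pan-leukocyte marker, read -1.96, -5.56 and -1.81. Sesn1 and Fas, chosen after their values were seen, share that pattern, near equal in MF and PH and lower in iHep. Their order, PH, MF, iHep, was seen in 17.2% of the 13925 genes above background on all 3 arrays. Ephx1 had the pattern by its brighter probe (0.24 in PH over MF) but not by its other (2.57). Pancreatic acinar markers summed to 0.325 in MF, 0.607 in iHep and 337 in PH, with Pnlip at 6.56 in PH, so acinar transcripts were read on the PH array. Endothelial markers summed to 0.722, 0.606 and 34.0 and lymphocyte markers to 0.811, 0.705 and 11.4. Epithelial markers summed to 7.74, 22.1 and 22.7 and erythroid markers to 0.210, 0.164 and 20.2, all in the order MF, iHep, PH. Single genes carried much of some sums. Sox9, at 2.72, 2.40 and 0.81, made up most of the epithelial sum in MF and ran against Krt18. Cd3e, at 3.36, made up most of the lymphocyte sum in PH, where Cd3d read -3.45. Kdr made up most of the endothelial sum in MF and iHep. Its probe used gave -0.21 in iHep over MF and 1.82 in PH over MF, but another gave -4.47 and 6.21. The part of these other cells in the level of any p53 target was not tested.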

How the data were processed

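Spot intensity values were deposited by the authors as scanner files, 1 per array. They come, per the file headers, from Agilent Feature Extraction 11.0.1.1 (the submitters' processing notes name 9.1), are background-subtracted and detrended, and carry array annotation on mm9. The authors also deposited a table of log2 values for 26049 probes, whose normalization, scale and centring are unstated. Its correlations with the scanner values were 0.997 (MF), 0.998 (iHep) and 0.994 (PH), its column medians 7.02, 7.01 and 7.07, its differences ran the same way with slopes of 0.90 to 0.94, and it held 5 of the 10 members. Per the labels' protocols, RNA was prepared with a blood kit and globin removal.

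Control spots and spots the software marked as non-uniform or outlying (190, 230 and 383 of 43020 on MF, iHep and PH) were left out. Spots of a probe were averaged to 39429 probes, of which 27228 matched a RefSeq symbol of GRCm38.p6 by unversioned accession and 12201 did not. A gene took its probe with the highest mean level among those not marked as faulty on any array. Groups came from the sample titles. Where 1 side was not well above background, the fold is a bound ("at least") against the higher of its own reading and the array's lowest level well above background (-6.30, -7.32 and -6.89 for MF, iHep and PH); such bounds made up 2102, 2898 and 2186 of the genes in the comparisons of iHep and PH with MF and of iHep with PH. Where neither side was, no fold was formed. Total signal per spot is the only measure of depth, and 1 array per group limits the precision.

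The members, lists and naming rule were chosen with earlier results of these data known. Text names all members, Cdkn1a, Mdm4, Cdkn2a, Trp63, Trp73, 9 cell markers and, per list and direction, up to 3 genes past 2-fold with the largest differences. Ccng2, Atf4, Cdc25c, further cell markers and further values of genes so named were added after they were seen. The lists held 20 p53 regulators, 10 relatives, 36 other targets (15 arrest and repair, 12 death, 9 metabolic and secreted), 12 BCL2 family genes, 11 genes of the ATF4 list (Atf4 itself among them) and 11 cell cycle genes. Some lists share genes. Mdm4 is in the regulators and the relatives, Bid in the death targets and the BCL2 family, and Bak1 and Bok in the relatives and the BCL2 family. A further target is not reported here and was left out of its list. Counting was tested on simulated data. Alternatives were quantile normalization, median scaling, normexp (limma 3.58.1, R 4.3.3, offset 50), the authors' values, a restriction to probes above background on all arrays, dim probes kept as read, averaging over the probes of a gene, and limits of 1.5-fold or 4-fold.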

Additional observations from a re-analysis of the deposited data

How the results depend on the processing

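Of the 30 member differences 21 were past 2-fold, all 21 kept their sign under up to 7 alternatives, and 20 stayed past 2-fold under each one that measured the member. The exception was Phlda3 in iHep over MF, at -0.88 after quantile normalization. Several alternatives could hardly move a member. All member probes were above background, so restricting to such probes or keeping dim ones as read returned the same values. Averaging probes could move only Trp53inp1, and median scaling shifts all genes of a comparison by the same amount. That leaves quantile normalization, normexp and, for 5 members, the authors' values as the informative ones. Trp53inp1 in PH over MF, not past 2-fold, stood at 0.40 by the mean of its probes. At a 4-fold threshold 2 members were lower and 1 higher in iHep over MF, where 12.2% and 7.37% of all genes were. In PH over MF 3 were lower and 1 higher, against 11.4% and 18.8% of all genes. In iHep over PH 4 were higher and 1 lower, against 10.1% and 21.5%. Most counts are fewer because the limit is stricter. The authors' values cover 5 members, and there 0 were higher and 2 lower in iHep over MF, 0 higher and 2 lower in PH over MF with a median of -0.94, and 3 higher and 1 lower in iHep over PH. Of all genes in those values 21.9% were higher and 22.3% lower in iHep over MF. The shares were 24.8% and 34.3% in PH over MF, and 31.5% and 25.1% in iHep over PH. After quantile normalization the members' median in iHep over PH was 1.52, while the all-gene median moved by 0.55. No paired analysis was possible because each group has 1 array. The dim MF array limits low readings most, with 14964 genes above background against 16314 on iHep and 17347 on PH, though all member probes were above background on every array.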
